A study of Homo sapiens with 12 samples.

Results

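Tumours grown from parental NCI-H1299 cells were compared with the same cells in culture, over 3 xenograft arrays and 3 culture arrays out of the 12 arrays of the series. The members were taken by sample title, as the parental samples labelled xenograft and those labelled cultured. NCI-H1299 is an established line of human non-small cell lung cancer, here purchased from the ATCC, and its parental cells were kept in medium with serum, which the labels also give for their xenografts. The remaining 6 arrays hold spheroid cells, which were grown in a stem cell medium, and xenografts of those spheroid cells. Every group therefore derives from 1 cell line, and no group carries a transgene or a drug treatment in the labels. The titles call the samples biological replicates. The host species and strain, the site and age of the tumours, and whether separate animals bore them are not stated in the labels. The p-values thus measure only the spread between these samples, which may be partly technical.

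A xenograft is a tumour formed by human cells in a host animal. In a solid tumour, cells meet matrix, host vessels and stroma, and gradients of oxygen, nutrients and growth factors that a culture dish lacks. Low oxygen stabilises the hypoxia-inducible factors, which switch on genes of glucose use, vessel growth and mitochondrial turnover. Amino acid shortage or a strained endoplasmic reticulum raises the translation of ATF4, a transcription factor that drives amino acid import and synthesis. RNA of a whole tumour mixes all its cells, so fewer cells of a type and less RNA per cell cannot be told apart.

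Levels are RMA values, that is log2 expression after background correction, quantile normalisation and summary over the probes of a probe set. A difference is the xenograft mean minus the culture mean on the log2 scale, given with its standard error (SE) from the limma fit to these 6 arrays. A difference of 1 is a 2-fold change. Of 19775 genes tested, 69 had a Benjamini-Hochberg adjusted p under 0.05 and are referred to as called. The 46 called genes that were higher in xenografts are 0.233% of the genes tested, and the 23 that were lower are 0.116%. All 69 differed by 2-fold or more with no overlap between the groups. The split between higher and lower depends on the scaling, with 109 higher and 156 lower after a second quantile normalisation and 79 higher and 101 lower after cyclic loess. Groups that did not overlap were found for 1458 genes in the higher direction (7.37%) and for 1241 genes in the lower direction (6.28%). At an unadjusted p under 0.05, 1199 genes were higher and 812 lower, and the median difference over all genes was -0.01.

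The arrays of the cultures were less alike than those of the tumours. The median SD of a gene was 0.316 among cultures and 0.199 among xenografts. Culture replicate 1 had the lowest signal of the control probe set for the 5′ end of 18S ribosomal RNA (6.96, against 10.5 and 13.3 in the other cultures and 12.2 to 12.8 in the xenografts). Its GAPDH control probe sets differed most between the 3′ and 5′ ends, by 0.493 log2 units against 0.0264 and 0.129 in the other cultures and 0.019 to 0.118 in the xenografts. The same gap for actin was 0.779, against 0.381 and 0.249 in the other cultures and 0.24 to 0.342 in the xenografts. All 15 ribosomal protein genes were lowest on that array, with a mean level of 13.18 against 14.05 to 14.26 on the other 5. The highest value on that array was 14.18, against 15.07 and 14.98 in the other cultures and 15.05 to 15.06 in the xenografts. Interquartile ranges also differed between arrays (2.82, 3.44 and 2.87 in the cultures, 2.99, 2.99 and 3.29 in the xenografts). The ribosomal protein list had a median of 0.23. That median changed sign in 4 of 18 alternatives, among them a second quantile normalisation and cyclic loess. The part of RNA quality and of these unequal distributions in the list differences was not tested. Medians without culture replicate 1 are given with several lists. Culture replicate 2 correlated more closely over all genes with xenograft replicate 3 (r = 0.976) than with either of the other cultures (0.961 and 0.970). The number of calls moved with single arrays. It was 33 without culture replicate 1, 644 without culture replicate 2 and 9 without culture replicate 3. Leaving out xenograft replicate 1, 2 or 3 gave 11, 3 and 25 calls. SPARC, ANKRD37 and HBE1 were the genes called whichever of the 6 arrays was left out, and each of the other called genes lost its call without at least 1 array.

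MGP, SPARC and FN1 were among the genes that rose most in tumours. MGP, a secreted protein that hinders calcification of matrix, read 6.11, 4.91 and 5.13 in the cultures and 13.78, 12.03 and 10.43 in the xenografts. This is a difference of 6.70 ± 0.76 (SE, adjusted p = 0.0295). With the probe set used here, every tumour lay far above every culture, although the tumours themselves ranged widely. The other MGP probe set read 3.99, 3.75 and 3.82 in culture and 5.93, 3.85 and 3.92 in tumours. SPARC, a matrix-binding glycoprotein, read 4.64, 4.96 and 4.83 in culture and 8.90, 8.98 and 9.01 in tumours. Its difference of 4.15 ± 0.17 had the lowest p of all genes (adjusted p = 0.000298), and the tumours were close to each other. FN1, the matrix glycoprotein fibronectin, read 9.16, 8.92 and 8.40 in culture and 13.70, 12.75 and 12.09 in tumours. It rose by 4.02 ± 0.40 (adjusted p = 0.0204), and 7 of its 7 probe sets were higher in tumours.

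EDIL3, SCG2, SPP1, MXRA8 and TGFBI also rose. EDIL3, a matrix ligand of integrins, read 6.02, 6.97 and 5.68 in culture and 10.56, 11.44 and 9.69 in tumours (difference 4.34 ± 0.49, adjusted p = 0.0287). SCG2, a secretory granule protein, read 9.23, 9.46 and 7.28 against 13.33, 13.06 and 12.55 (4.32 ± 0.55, adjusted p = 0.0334). SPP1, the secreted phosphoprotein osteopontin, was already high in culture at 11.52, 11.96 and 10.93 and reached 13.80, 14.19 and 13.69 in tumours. Thus SPP1 changed by 2.42 ± 0.29, less than EDIL3 or SCG2, but every tumour lay above every culture. MXRA8, a surface protein of the immunoglobulin fold, rose by 2.62 ± 0.32, and its other probe set differed by 0.15. TGFBI, a matrix protein induced by TGF-beta, rose by 2.28 ± 0.29, and its call was lost when all 12 arrays were fitted together.

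**Figure D1:**
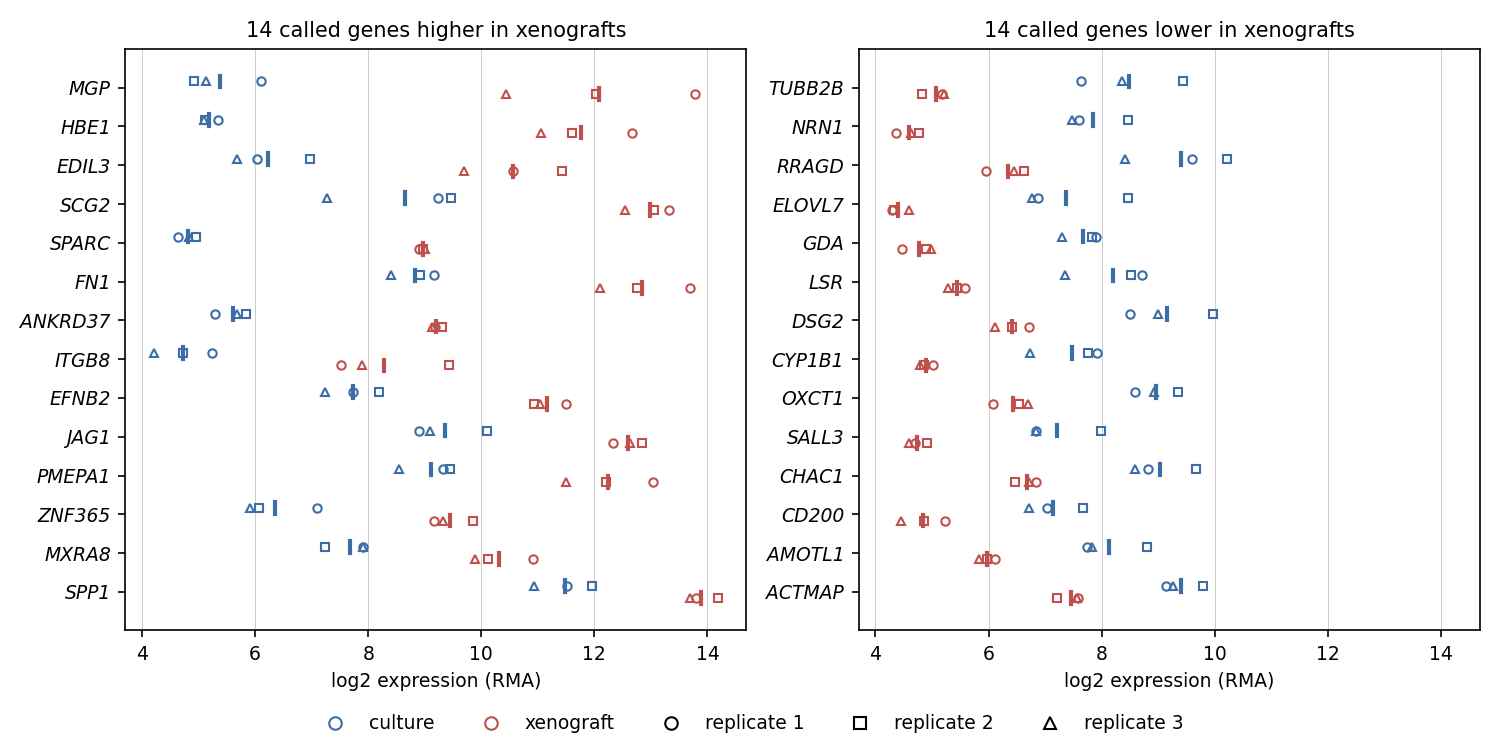
Log2 expression (x axis) of the 14 called genes with the highest and the 14 with the lowest difference, in the 3 culture arrays (blue) and the 3 xenograft arrays (red), where symbols mark the replicate and short bars the group mean. The groups are apart for every gene, and MGP shows the widest spread among tumours, from 10.43 to 13.78.

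EFNB2, JAG1, ITGB8 and PMEPA1 also had differences above 3 log2 units. EFNB2, a membrane ligand of Eph receptors that takes part in vessel and border formation, read 7.73, 8.20 and 7.24 in culture and 11.50, 10.93 and 11.04 in tumours (3.43 ± 0.28, adjusted p = 0.0109). JAG1, a ligand of Notch receptors, read 8.90, 10.10 and 9.09 in culture and 12.33, 12.84 and 12.63 in tumours (3.24 ± 0.33, adjusted p = 0.0204). The groups were far apart for both ligands, and the tumours lay close together. ITGB8, an integrin subunit that activates latent TGF-beta, read 5.24, 4.73 and 4.20 in culture and 7.51, 9.43 and 7.89 in tumours (3.55 ± 0.50, adjusted p = 0.0446). Of its 5 probe sets the other 4 differed by 0.04 to 0.42. PMEPA1, a TGF-beta target that dampens SMAD signalling, rose by 3.14 ± 0.41 (adjusted p = 0.0346). SEMA3C, a secreted guidance cue, rose by 1.99 ± 0.28 and CXCL1, a neutrophil-attracting chemokine, by 2.12 ± 0.30.

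HBE1, the embryonic epsilon chain of haemoglobin, gave the second largest difference and rests on 1 probe set. That probe set read 5.35, 5.10 and 5.10 in culture and 12.66, 11.60 and 11.06 in tumours, a difference of 6.59 ± 0.38 (adjusted p = 0.00132). The second HBE1 probe set read 6.03, 5.27 and 5.83 in culture and 5.88, 5.84 and 5.64 in tumours, a difference of 0.08. Of the 19 probe sets that the annotation pairs with globin genes, the first HBE1 probe set was the single one with a 2-fold difference and no overlap, and the rest differed by -0.15 to 0.86. The high HBE1 probe set was as high in xenografts of spheroid cells, with a mean of 11.5 against 5.21 in cultured spheroid cells.

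TUBB2B, NRN1 and GDA were among the genes that fell most. TUBB2B, a beta-tubulin of neural cells, read 7.64, 9.43 and 8.35 in culture and 5.18, 4.82 and 5.22 in tumours, and fell by 3.41 log2 units (SE 0.42, adjusted p = 0.0334). NRN1, a membrane-anchored protein that promotes neurite growth, read 7.61, 8.47 and 7.48 against 4.36, 4.77 and 4.63 and fell by 3.26 (SE 0.29, adjusted p = 0.0149). GDA, which deaminates guanine, read 7.90, 7.82 and 7.30 in culture and 4.47, 4.89 and 4.98 in tumours and fell by 2.90 (SE 0.23, adjusted p = 0.0109). The other GDA probe set differed by -0.27 with overlapping groups. The tumour values of these genes lie below the median of each array (5.85 to 6.03), where RMA values carry no detection call and a fold change is compressed. Of the 23 genes that fell, 9 lay below the array's median on all 3 xenograft arrays, and 6 of the 46 genes that rose lay below it on all 3 culture arrays.

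RRAGD, OXCT1, ELOVL7 and CYP1B1 fell as well. RRAGD, a Rag GTPase that places mTORC1 on lysosomes, read 9.59, 10.22 and 8.42 in culture and 5.96, 6.63 and 6.46 in tumours, and fell by 3.06 (SE 0.44, adjusted p = 0.0455). OXCT1, the mitochondrial enzyme that activates ketone bodies, read 8.60, 9.36 and 8.93 against 6.08, 6.54 and 6.70, and changed by -2.52 (SE 0.26, adjusted p = 0.0212). ELOVL7, a fatty acid elongase, fell by 2.97, and CYP1B1, a dioxin-inducible cytochrome P450, fell by 2.58. Both of these were well above their tumour levels in all 3 cultures.

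DSG2 and LSR fell, while the list of epithelial genes held no call. DSG2, a desmosomal cadherin, read 8.51, 9.96 and 9.001 in culture and 6.71, 6.42 and 6.12 in tumours, and fell by 2.74 (SE 0.37, adjusted p = 0.0363). LSR, a protein of tricellular tight junctions, read 8.72, 8.52 and 7.36 against 5.58, 5.45 and 5.29, and fell by 2.76 (SE 0.35, adjusted p = 0.0334). AMOTL1, a junction protein that binds YAP, fell by 2.16, and CD200, a surface glycoprotein that restrains myeloid cells, fell by 2.30. The other AMOTL1 probe sets differed by -1.25, -0.28 and -0.18. On the list of epithelial genes 0 of 19 measured members were called and the list median was -0.08. The keratin KRT8 read 8.60, 9.17 and 9.11 in culture and 7.34, 6.66 and 7.57 in tumours (-1.77 ± 0.28, adjusted p = 0.0565), and its partner KRT18 differed by -1.71 ± 0.42 (adjusted p = 0.164). DSP, the desmosomal plaque protein, overlapped between groups. The median of this list ranged from -0.77 to -0.02 over the alternatives, so its size depends on the processing or the arrays used.

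Gene lists were summarised by the calls among their members and by the median difference, beside 0.233% and 0.116% of all genes called and 7.37% and 6.28% of all genes without overlap. Of 33 pathway lists, the hypoxia response had the highest median difference and the ATF4 targets had the lowest.

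**Figure D2:**
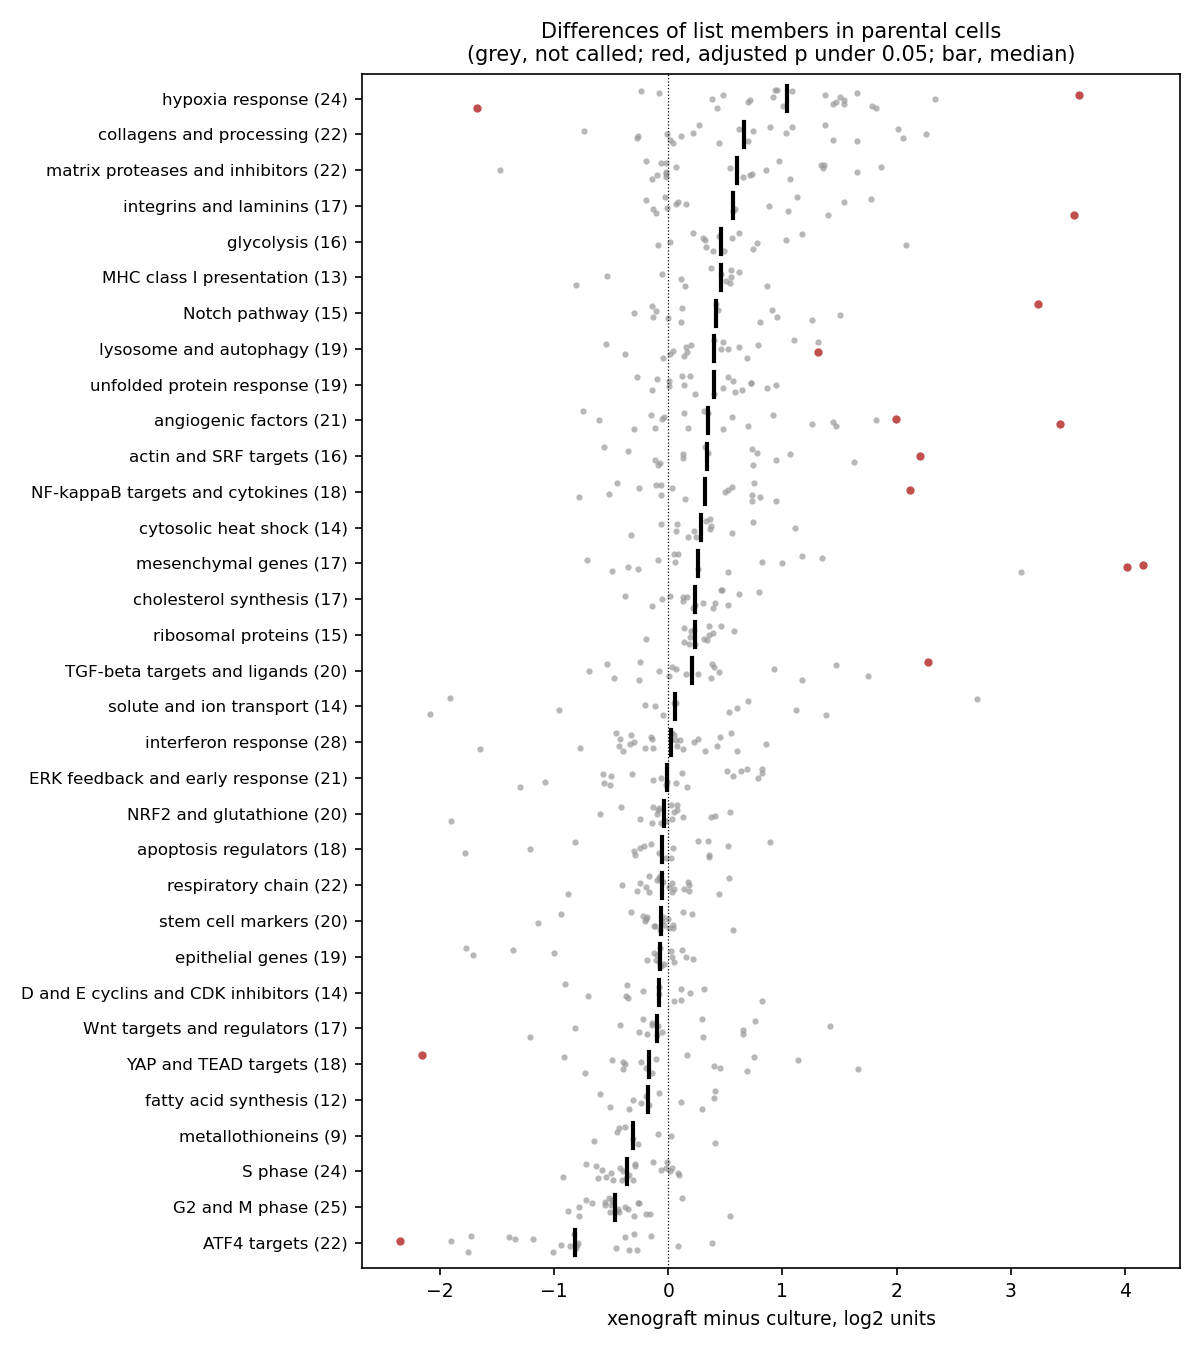
Xenograft minus culture difference in log2 units (x axis) of each measured member of 33 pathway lists (rows, with the number of measured genes), where red points are called genes, grey points are not called and black bars are list medians. The hypoxia response lies at the top with a median of 1.04 and the ATF4 targets at the bottom with -0.82. The other lists have medians from -0.47 (G2 and M phase) to 0.66 (collagens and processing).

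Hypoxia response genes were higher in tumours as a list. Of 24 measured members 21 had positive differences, 16 had no overlap in the higher direction and 1 in the lower direction. The list median was 1.04 and stayed between 0.84 and 1.41 in 18 alternatives. Adjusted over all genes, 1 member was called higher and 1 lower. ANKRD37, a small ankyrin repeat protein induced by low oxygen, read 5.30, 5.84 and 5.67 in culture and 9.17, 9.30 and 9.13 in tumours. This is a difference of 3.60 ± 0.20 (adjusted p = 0.00131), while the other ANKRD37 probe set differed by 0.15 with overlapping groups. STC2, a secreted glycoprotein that is induced by hypoxia and also by ATF4, read 7.80, 8.19 and 7.85 in culture and 6.20, 6.36 and 6.24 in tumours and fell by 1.68 (SE 0.18, adjusted p = 0.0247).

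Other hypoxia genes had sizeable differences without passing the threshold. ADM, the vasodilating peptide adrenomedullin, read 9.22, 9.12 and 9.56 in culture and 10.50, 11.34 and 11.51 in tumours (1.82 ± 0.29, adjusted p = 0.0565). PFKFB3 and PFKFB4 set the level of a glycolysis activator, and PDK1 is a kinase that inhibits pyruvate dehydrogenase. These genes were picked after their values were seen. They differed by 1.79, 1.66 and 2.33, with adjusted p of 0.0668, 0.0668 and 0.0699. HILPDA, a lipid droplet protein induced by hypoxia but not on the list, was called. It was also picked after its values were seen and read 8.18, 8.59 and 8.48 in culture and 9.72, 10.17 and 10.37 in tumours (1.67 ± 0.23, adjusted p = 0.0379). The mean level of the list was 7.95, 8.59 and 8.16 in cultures and 9.08, 9.42 and 9.40 in tumours, so the tumours lay above all cultures. Culture replicate 1, with the low ribosomal control signal, was the lowest culture for 16 of the 24 members. Without it the list median was 1.01.

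Promoters of an induced gene of this list and of ADM are shown to let the core of the hypoxia response element be seen in them. The windows are RefSeq sequences of GRCh38.p14 that run over the 250 bases before the gene start, at chr4:185396591-185396840 (plus strand) for ANKRD37 and at chr11:10304823-10305072 (plus strand) for ADM. Capitals mark ACGTG or GCGTG on either strand. In ANKRD37 matches on both strands overlap in the palindrome CACGTG, which gives 3 matches in all, and ADM has 1.
ANKRD37: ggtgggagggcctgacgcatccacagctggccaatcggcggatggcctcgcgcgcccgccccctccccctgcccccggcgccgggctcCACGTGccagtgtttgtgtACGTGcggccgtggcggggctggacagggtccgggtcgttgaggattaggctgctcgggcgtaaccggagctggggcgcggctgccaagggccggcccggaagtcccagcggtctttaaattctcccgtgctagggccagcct
ADM: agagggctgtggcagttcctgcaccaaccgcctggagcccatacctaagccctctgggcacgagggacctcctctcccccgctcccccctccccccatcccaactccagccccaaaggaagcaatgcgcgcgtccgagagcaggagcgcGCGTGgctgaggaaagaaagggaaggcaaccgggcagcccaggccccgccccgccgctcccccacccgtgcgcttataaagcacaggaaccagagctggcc

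These short letters are common. In windows of 300 bases (250 before to 50 after the start) they occur in 48.4% of 27305 promoters of the table and in 56.4% of the measured genes that have an entry. Of the 21 hypoxia genes with an entry 17 held a match (81.0%), as did 18 of 22 genes of the S phase list (81.8%). Among called genes the share was 55.3% of those higher and 66.7% of those lower. The AP-1 letters TGANTCA occurred in 2 of 38 promoters of called higher genes (5.26%) and in 5.84% of measured genes.

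Glycolytic enzymes leaned the same way with smaller differences. Of 16 measured genes 15 had positive differences, 8 did not overlap and 0 were called (the list median was 0.46). ENO2, the neuronal enolase, read 8.45, 7.80 and 6.91 in culture and 9.28, 10.48 and 9.64 in tumours (2.08 ± 0.44, adjusted p = 0.12). LDHA, which turns pyruvate into lactate, read 12.46, 13.19 and 13.53 against 14.08, 14.16 and 14.03 (1.03 ± 0.28, adjusted p = 0.197), and TPI1 differed by 0.74. Culture replicate 1 was the lowest culture for 12 of the 16 genes, and without it the list median was 0.22.

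ATF4 target genes were lower in tumours as a list. Of 22 measured members 20 had negative differences, 8 did not overlap in the lower direction and 0 in the higher, and the median was -0.82. CHAC1, which breaks down glutathione and is induced by ATF4, was the called member. It read 8.81, 9.68 and 8.60 in culture and 6.83, 6.47 and 6.72 in tumours and fell by 2.35 (SE 0.29, adjusted p = 0.0334). ATF3, a stress transcription factor, differed by -1.18 (adjusted p = 0.18). SLC7A11, the cystine importer, read 8.57, 10.54 and 9.96 in culture and 7.08, 8.01 and 8.25 in tumours (-1.91 ± 0.52, adjusted p = 0.204). These genes were not at 1 level in the cultures. All 22 were highest on culture replicate 2, and culture replicate 1 was the lowest culture for 21 of them. The mean level of the list was 9.66, 11.30 and 10.49 in cultures and 9.45, 9.58 and 9.82 in tumours, so culture replicate 1 lay within the tumour range. Without culture replicate 2 the median was -0.58 and without culture replicate 1 it was -1.20. It was closest to 0 at -0.38 without the _x_at and _s_at probe sets, which left 15 of the 22 genes and 0 calls.

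The CHAC1 promoter is given because the amino acid response element, the letters bound by ATF4 with a partner, can be read in it. It spans chr15:40953221-40953470 of GRCh38.p14 (plus strand, RefSeq, the 250 bases before the start), and capitals mark 1 match to TGATGNAA, found on the reverse strand.
CHAC1: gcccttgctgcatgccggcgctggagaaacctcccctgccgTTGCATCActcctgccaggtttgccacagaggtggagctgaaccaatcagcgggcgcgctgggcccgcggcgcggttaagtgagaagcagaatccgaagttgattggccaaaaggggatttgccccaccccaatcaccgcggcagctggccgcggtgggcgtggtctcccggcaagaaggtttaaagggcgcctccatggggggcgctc

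In the 300-base windows TGATGNAA occurred in 5 of the 19 ATF4 targets with an entry (26.3%), in 3.67% of all promoters and in 2.62% of measured genes. This motif was added after the results were seen. The letters were also found in 3 of 38 called higher genes (7.89%) and in 1 of 21 called lower genes (4.76%).

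Proliferation genes were somewhat lower in tumours, with no single call. On the G2 and M phase list 23 of 25 members had negative differences, 4 did not overlap in the lower direction and 1 in the higher, and the median was -0.47. TOP2A, the DNA topoisomerase of dividing cells, read 10.75, 11.14 and 10.88 in culture and 10.56, 10.05 and 9.83 in tumours (-0.78 ± 0.23, adjusted p = 0.248). TTK, a spindle checkpoint kinase, differed by -0.78 (adjusted p = 0.338). On the S phase list 20 of 24 members had negative differences, 5 did not overlap and the median was -0.36. CDC6, which loads the replicative helicase, differed by -0.93 ± 0.21 (adjusted p = 0.132), FEN1, a flap endonuclease, by -0.61 and CDC45, a helicase subunit, by -0.72. The cultures differed here too. The mean level of the G2 and M phase list was 10.21 on culture replicate 1, inside the tumour range of 10.09 to 10.45, and 10.86 and 10.93 on the other cultures. Without culture replicate 1 the median of that list was -0.67 and that of the S phase list was -0.55. Over the 18 alternatives the G2 and M phase median ranged from -0.73 to -0.34 and the S phase median from -0.55 to -0.15, the last without the _x_at and _s_at probe sets, which left 18 of 24 genes.

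The TOP2A promoter shows the letters TTTGAA, the core of the cell cycle homology region of late cell cycle genes, at 2 places (capitals, 1 on each strand). It spans chr17:40417897-40418146 of GRCh38.p14 on the minus strand (RefSeq, the 250 bases before the start).
TOP2A: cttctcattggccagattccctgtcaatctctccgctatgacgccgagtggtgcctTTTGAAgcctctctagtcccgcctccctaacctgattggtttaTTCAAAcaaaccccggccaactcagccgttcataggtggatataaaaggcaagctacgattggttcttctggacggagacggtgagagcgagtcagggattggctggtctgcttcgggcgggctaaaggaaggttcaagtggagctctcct

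TTTGAA occurred in 13 of the 20 G2 and M phase genes with an entry (65.0%), in 1 of 22 S phase genes (4.55%), in 15.4% of all promoters and in 11.9% of measured genes.

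**Figure D3:**
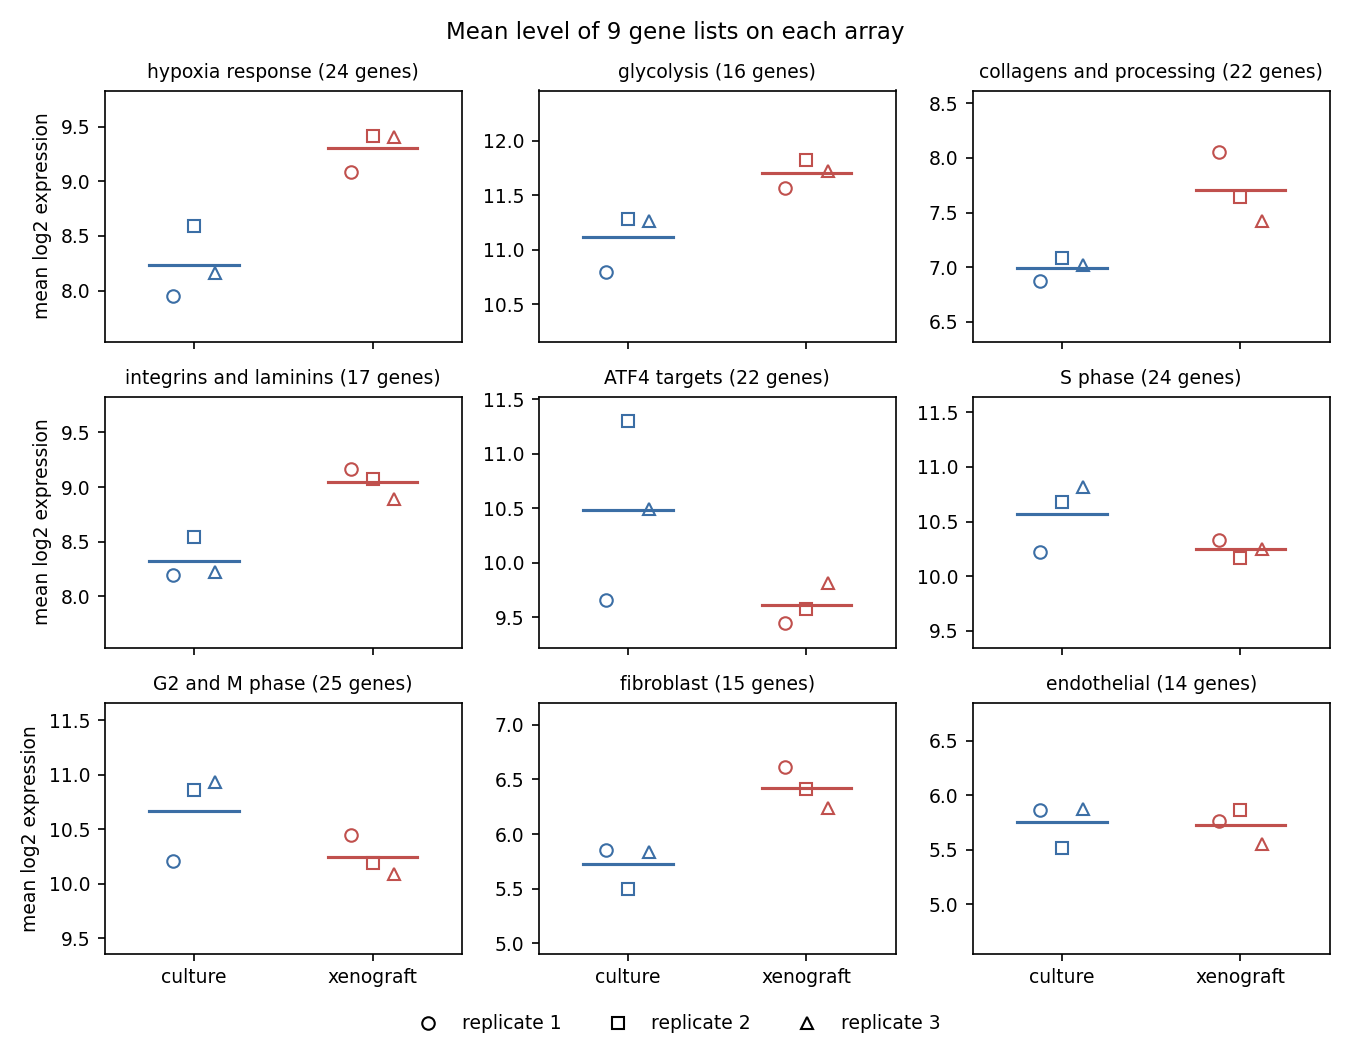
Mean log2 expression (y axis, the same height in all panels) over the members of 9 lists in each of the 3 culture arrays (blue) and the 3 xenograft arrays (red), with bars at the group mean. Cultures and tumours are apart for hypoxia, glycolysis, collagens, integrins and fibroblast markers, while culture replicate 1 falls inside the tumour range for ATF4 targets, S phase and G2 and M phase.

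Matrix and adhesion lists were higher in tumours with few calls. Of 22 collagens and collagen-processing genes, 11 did not overlap in the higher direction, 1 in the lower direction and 0 were called (median 0.66). COL6A1, a chain of the microfibrillar collagen VI, read 8.26, 8.28 and 8.35 in culture and 11.74, 9.61 and 10.32 in tumours (2.26 ± 0.48, adjusted p = 0.12). COL3A1, a fibrillar collagen chain, read 5.28, 5.27 and 5.14 against 7.71, 7.88 and 6.28 (2.06 ± 0.40, adjusted p = 0.0979), and another of its 5 probe sets differed by -0.02. PLOD1, a lysyl hydroxylase of collagen, differed by 1.37 ± 0.21 (adjusted p = 0.0565). Of 17 integrins and laminins 8 did not overlap, all in the higher direction (median 0.56), with ITGB8 called. The collagen median was lowest at 0.24 without the _x_at and _s_at probe sets (16 genes left), and the integrin and laminin median at 0.21 without culture replicate 1. ITGA1, a collagen-binding integrin chain, differed by 1.40 and LAMC1, a laminin chain, by 1.05.

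Matrix proteases showed a mixed pattern. Of 22 measured proteases and inhibitors, 4 did not overlap in the higher direction, 1 in the lower and 0 were called (median 0.60). That median was 0.13 without xenograft replicate 3 and 0.37 without culture replicate 1. MMP16, a membrane-bound metalloprotease, read 7.67, 8.09 and 7.55 in culture and 8.95, 9.23 and 9.23 in tumours (1.37 ± 0.20, adjusted p = 0.0511). ADAMTS1, which cleaves proteoglycans, differed by 1.65 ± 0.33 (adjusted p = 0.103), and PLAU, the urokinase, by 1.35 ± 0.32 (adjusted p = 0.156). On the list of mesenchymal genes SPARC and FN1 were the called members of 17, and 8 did not overlap in the higher direction (median 0.26, and 0.11 without xenograft replicate 2). S100A4, a calcium-binding protein of motile cells, read 7.20, 6.35 and 6.38 against 9.20, 10.80 and 9.18 (3.09 ± 0.46, adjusted p = 0.0511).

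In signalling lists the called members were mostly ligands and targets. The Notch list held JAG1 as its called member of 15, and 4 members did not overlap, all in the higher direction (median 0.41, and 0.15 without culture replicate 1). HES4, a Notch target repressor, read 7.49, 7.96 and 7.21 in culture and 8.67, 9.23 and 9.27 in tumours (1.50 ± 0.26, adjusted p = 0.0668), and the receptor NOTCH2 differed by 0.91. Of 20 TGF-beta targets and ligands TGFBI was called (median 0.21). The direction of that median turned to -0.05 in the fit of all groups without culture replicates 1 and 2, and it was 0.06 without culture replicate 2 alone. The receptor TGFBR2 differed by 1.75 ± 0.30 (adjusted p = 0.0668) and LTBP2, a latent TGF-beta binding protein, by 1.17. Among 21 angiogenic factors EFNB2 and SEMA3C were called, 10 did not overlap in the higher direction and 2 in the lower (median 0.35). That median was 0.09 without xenograft replicate 1 and 0.18 without culture replicate 1.

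The actin, lysosome and endoplasmic reticulum lists had medians of 0.34 to 0.40 that depended on which culture arrays were fitted. MYL9, a regulatory light chain of myosin, read 8.46, 8.12 and 8.10 in culture and 11.03, 10.09 and 10.17 in tumours (2.21 ± 0.28, adjusted p = 0.0334) and was the called member of 16 actin and SRF genes (median 0.34, and 0.03 in the fit of all groups without culture replicates 1 and 2). FHL2, a LIM domain cofactor, differed by 1.06 and CALD1, which binds actin and tropomyosin, by 1.63. CTSA, a lysosomal carboxypeptidase, read 10.35, 10.46 and 10.65 in culture and 11.61, 12.02 and 11.77 in tumours (1.31 ± 0.19, adjusted p = 0.0455) and was called among 19 lysosome and autophagy genes (median 0.40, and 0.16 without culture replicate 1). The cathepsins CTSZ and CTSB differed by 1.31 and 1.10 without a call. Endoplasmic reticulum chaperones had a median of 0.40 over 19 genes with 0 calls, which was 0.07 without culture replicate 1. PDIA4, a disulphide isomerase, differed by 0.94 and CRELD2 by 0.72.

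Several lists had medians near 0 or members that moved both ways. Respiratory chain genes had 0 calls among 22 and a median of -0.06. Interferon response genes had 0 calls among 28 and a median of 0.03, and its sign changed in 8 of 18 alternatives. Stem cell markers had 0 calls among 20 and a median of -0.06. YAP and TEAD targets moved both ways, with AMOTL1 called lower and PTPN14, a phosphatase that binds YAP, at 1.66 ± 0.25 (adjusted p = 0.0511). Of 18 measured, 4 did not overlap in the higher direction and 5 in the lower (median -0.17). Among 18 apoptosis regulators 0 were called, and BID, which links death receptors to mitochondria, differed by -1.21 ± 0.18 (adjusted p = 0.0511). KCNJ2, an inward rectifier potassium channel, differed by 2.70 ± 0.45 (adjusted p = 0.059).

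Markers of host or stromal cell types were examined because a xenograft can hold host cells. How far host transcripts bound the human probes was not tested. Fibroblast markers rose in part. Of 15 measured, FAP was called, 4 did not overlap in the higher direction, and the mean level of the list was 5.50 to 5.85 in cultures and 6.24 to 6.61 in tumours. Its median difference was 0.24, and 0.003 without the _x_at and _s_at probe sets. FAP, a serine protease of activated fibroblasts, read 5.35, 4.70 and 5.16 in culture and 7.58, 6.78 and 7.45 in tumours (2.20 ± 0.27, adjusted p = 0.0334). MFAP5, a microfibril protein, was high on xenograft replicate 3 at 10.12 against 5.80 and 6.73 in the other tumours. The list shares COL3A1 and other collagens with the matrix lists, and the part of stromal RNA in the matrix results was not tested. The mean level of endothelial markers was 5.52 to 5.88 in cultures and 5.55 to 5.87 in tumours, and 0 of 14 were called. Myeloid markers spanned 5.19 to 5.68 and 5.34 to 5.87, again with 0 calls among 13. Xenograft replicate 1 was the highest of the 6 arrays for 7 of the 13. LAPTM5, a lysosomal membrane protein of blood cells, read 6.37, 6.40 and 6.86 in culture and 9.40, 6.73 and 6.29 in tumours, and its other probe set read 8.43 on xenograft replicate 1 against 6.27 and 5.90. FCER1G, the other of the 2 highest markers, read 6.04, 5.88 and 5.75 in tumours and 5.71, 4.99 and 5.75 in culture. The common leukocyte antigen PTPRC, named outside the marker rule, read 5.10, 5.10 and 4.66 in tumours and 5.00, 4.55 and 5.09 in culture. Its values lay below the median of each array, and in this dim range it did not share the rise of LAPTM5. Xenograft replicate 1 was also the highest array for 12 of the 22 collagen genes and had the highest MGP, FN1 and COL6A1 values given above. Without it the collagen median was 0.62. Lymphoid, pericyte, muscle, adipocyte, erythroid and keratinocyte lists had 0 calls each, with medians between -0.13 and 0.04. Among the pericyte markers, RGS5 was high on xenograft replicate 3. A probe set of it read 10.16 there, against 7.45 and 7.64 in the other tumours and 7.36, 8.21 and 7.02 in culture. Another RGS5 probe set read 6.06, 6.12 and 6.08 in tumours. NOTCH3 differed by 0.95 with overlapping groups.

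Levels of 10 lung cancer epithelium markers were read beside the labelled cell type, with no other cell type for reference. Their mean level was 7.82 to 8.08 in cultures and 7.56 to 7.75 in tumours. Of these markers 2 lay below the lower quartile of every array. KRT18 read 11.77, 12.91 and 13.01 in culture and 11.51, 10.28 and 10.77 in tumours. VIM, which is also on the mesenchymal list, read 13.55, 14.49 and 14.42 in culture and 14.70, 14.67 and 14.67 in tumours. The mean level therefore does not establish an epithelial identity.

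The tumours also differed from each other. By the largest SD among the 3 xenografts, a rule chosen after the results were seen, the leading probe set carries the annotation symbol Igk, the mouse spelling of the immunoglobulin kappa locus. It read 13.04, 7.77 and 7.13 in the tumours and 6.37, 5.68 and 6.64 in the cultures. NPTX2, a secreted pentraxin, read 11.62 on xenograft replicate 1 against 6.99 and 6.65 on the others, and the gelatinase MMP2 read 12.36 there against 7.99 and 7.76. The gap junction gene GJB2 followed with 12.31 against 7.91 and 8.41. Xenograft replicate 1 thus stood above the other tumours for these 4 probe sets. BHLHE40, a hypoxia-induced repressor, went the other way with 5.92 on xenograft replicate 1 and 10.53 and 10.68 on the others. The repressors of differentiation ID2 and ID3 read 5.29, 7.04 and 10.78 and 6.73, 8.99 and 11.70 in xenograft replicates 1, 2 and 3, while the cultures spanned 8.21 to 8.57 and 9.10 to 9.95. The collagenase MMP1 reached 10.98 on xenograft replicate 3, against 5.54 and 7.04 on the others, and TKTL1, a transketolase-like protein, read 6.59, 10.32 and 11.62. None of these 9 was called. Their choice by a wide spread among 3 tumours made a call unlikely beforehand, so this says nothing about tumours against cultures.

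The change from culture to tumour was then set against the same change in spheroid cells, with the test of the difference between both changes in a fit to all 12 arrays. This asks whether the parental change from culture to tumour was shared by spheroid cells. Parental cultures had medium with serum and spheroid cultures a stem cell medium, so the starting levels of the changes may differ. A difference of changes does not show whether the culture level or the tumour level of a gene differs. The part of the medium was not tested. In spheroid cells 4 genes were called in the fit to all 12 arrays (0.0202% of genes tested), and HBE1 was among them. In that same fit the parental comparison made 687 calls, while its 69 calls come from the fit to 6 arrays. Of the 69 genes called in parental cells, 60 had the same sign in spheroid cells. The share over all genes was not computed, and signs of spheroid changes near 0 count here too (FN1 0.19, CHAC1 -0.02). This count is therefore no measure of a shared response. The difference of changes was called for 27 genes in all (0.137%), and for 15 of the 69. Single arrays moved this count as well. It was 97 without culture replicate 1, 186 without culture replicate 2, 16 without xenograft replicate 1 and 6 without xenograft replicate 2, all of parental cells. Leaving out spheroid culture replicate 2 or 3 gave 3 and 2, and leaving out spheroid xenograft replicate 1, 2 or 3 gave 2, 2 and 7. The genes that define this overlap were chosen by the parental comparison, which shares its arrays with the test, so the 15 are a description.

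SPARC differed most clearly, with a change of 4.15 in parental cells and 0.22 in spheroid cells (difference of changes -3.93 ± 0.20, adjusted p = 4.37e-06). S100A16, a calcium-binding protein picked after its values were seen, changed by 1.78 in parental and by -0.84 in spheroid cells (difference -2.62, adjusted p = 0.00296). HILPDA changed by 1.67 and -0.32 (difference -1.99, adjusted p = 0.0171). NRN1, GDA, LSR, SALL3 and CHAC1 fell in parental tumours and changed by -0.42 to -0.02 in spheroid tumours. Their differences of changes were 3.10, 2.47, 2.53, 2.21 and 2.33. HBE1 and EDIL3 changed by 6.59 and 4.34 in parental cells and by 6.33 and 3.84 in spheroid cells. The differences of changes were -0.26 ± 0.54 and -0.50 ± 1.03 and were not called. CYP1B1 and DSG2 changed by -2.58 and -2.74 in parental cells and by -1.96 and -1.66 in spheroid cells. The hypoxia list had a median of 1.04 in parental and -0.004 in spheroid cells, and 0 of its 24 members were called for the difference of changes.

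**Figure D4:**
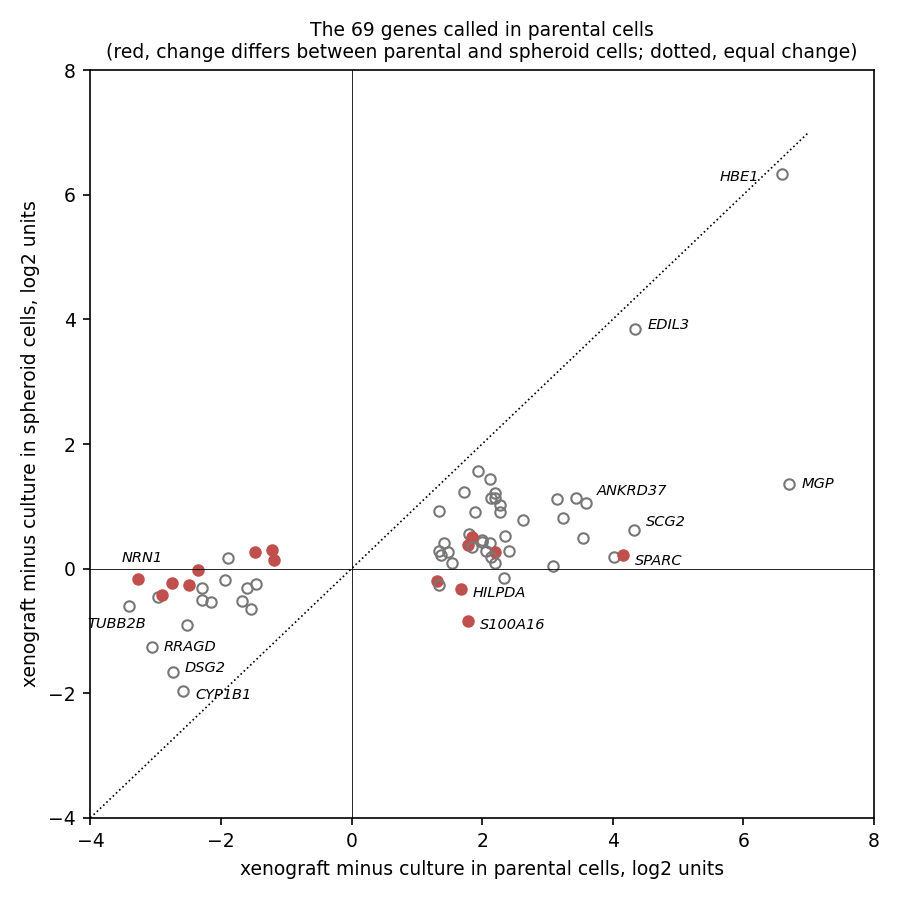
Xenograft minus culture difference in log2 units in parental cells (x axis) and in spheroid cells (y axis) for the 69 genes called in parental cells, where filled red points are genes called for the difference of changes and the dotted line marks equal changes. HBE1 (6.59 and 6.33) and EDIL3 (4.34 and 3.84) lie near the line, while SPARC (4.15 and 0.22) and most other genes lie near a spheroid change of 0.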

How the data were processed

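Each sample was hybridised to 1 Affymetrix HG-U133 Plus 2.0 array. The deposited values are log2 expression values, made with RMA and the affy package per the submitters' processing notes. Their versions, and which arrays shared a normalisation, are not stated in the labels. Of 54675 probe sets 41091 had 1 gene symbol, and 19775 genes took the values of whichever such probe set had the highest 12-array mean, with no filter on dim signals. Control probe sets were left out.

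With R 4.3.3 and limma 3.58.1, lmFit and eBayes were run on the 6 parental arrays (4 residual degrees of freedom, two-sided, called at Benjamini-Hochberg adjusted p under 0.05). The difference of changes used all 12 arrays. The fits were tested on simulated data. The number of arrays limits precision (median SE 0.227). An exact permutation test of 3 against 3 cannot go below p = 0.1.

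Named genes are the 14 highest and 14 lowest differences among called genes, 3 lowest-p members per list and 2 highest markers per cell type, unless stated. The samples, lists and rules were chosen with earlier results of these data known. Alternatives were other normalisations, probe set choices, filters, variance models, arrays left out and a replicate block. Numbers shared by cultures and xenografts did not pair them.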

Additional observations from a re-analysis of the deposited data

Results flagged for a closer look

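For 17 named genes the xenograft minus culture change differed between spheroid and parental cells in the 12-array limma fit. The values are spheroid change minus parental change in log2 units. The genes with a more negative change in spheroid cells were SPARC (-3.93), SLC2A3, a glucose transporter (-3.12), S100A16 (-2.62), HILPDA (-1.99), FAP (-1.94), FHL2 (-1.66), CTSA (-1.52), RYBP, a Polycomb protein (-1.41), and THBS3, a thrombospondin (-1.34). SLC2A3 differed by 1.38 in parental cells without a call there (adjusted p = 0.211) and by -1.74 in spheroid cells. The genes with a more positive change in spheroid cells were NRN1 (3.10), LSR (2.53), GDA (2.47), CHAC1 (2.33), SALL3, a zinc finger protein (2.21), CCDC97 (1.75), XRCC3, a recombination repair protein (1.52), and CCDC85C (1.34). RYBP, THBS3, CCDC97, XRCC3 and CCDC85C were picked for this difference after their values were seen.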

How the results depend on the processing

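The parental comparison made 69 calls. With all 12 arrays in the fit it made 687 (68 of them shared), with quantile normalisation applied again 265, with cyclic loess 180, with the mean of all probe sets 112, without genes below the median level 117, with an intensity trend and robust variance 140, and with array weights 1388, the weights of culture replicates 1 and 2 being 0.543 and 0.256. Median centring left 8 calls and leaving out the _x_at and _s_at probe sets left 9, of which 8 and 9 were shared. The share of calls that were higher was 66.7%, against 41.1% after quantile normalisation again and 43.9% after cyclic loess. Leaving out 1 array gave 3 to 644 calls. Without parental culture replicates 1 and 2, in a fit of all groups chosen after seeing the data, there were 554 calls (59 shared). The lone culture is then assumed to vary like the other groups.

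Same-numbered cultures and xenografts did not deviate together (r of 0.192, -0.454 and -0.434), so the numbers were not taken as pairs. With the replicate block the parental comparison made 68 calls, 46 of them shared, and the difference of changes made 12 in place of 27. Its count was 8 after median centring, 133 after quantile normalisation again, and 2 to 186 when 1 array was left out. The cause was not tested. HBE1 and ANKRD37 were called in all alternatives. Of 104 named genes 4 changed sign in 1 alternative each, none of them called. COL3A1 was -0.015 with no _x_at or _s_at probe sets. With 1 array left out, MMP1 spanned -0.50 (without xenograft replicate 3) to 2.22, ID2 -2.23 to 0.51 and ID3 -1.76 to 0.73, the last values of both without xenograft replicate 1.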

Other observations

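Other called genes were picked after their values were seen. PTGER4, a receptor of prostaglandin E2, read 7.15, 7.95 and 7.14 in culture and 9.70, 10.24 and 9.32 in tumours and rose by 2.34 ± 0.31 (limma, adjusted p = 0.0363). SPHK1, which makes sphingosine 1-phosphate, read 6.71, 6.86 and 6.78 against 9.17, 8.60 and 8.57 and rose by 2.00 ± 0.21 (adjusted p = 0.0239). The groups were well apart for both. BMPR2, a receptor of bone morphogenetic proteins, rose by 2.13 ± 0.31, and the kinase SGK1, induced by glucocorticoids and by osmotic stress, by 1.80 ± 0.25. PDK3, a kinase that inhibits pyruvate dehydrogenase, rose by 1.35 ± 0.17. NUAK1, a kinase related to AMPK, went the other way and fell by 1.89 (SE 0.28).

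GATA3, a lineage transcription factor, rose by 2.20 ± 0.27, and CRIP1, a LIM domain protein, by 2.35 ± 0.34. MYO10, the myosin of filopodia, rose by 2.14 ± 0.27, EMP1, an epithelial membrane protein, by 1.93 ± 0.24 and the heparan sulphate proteoglycan SDC4 by 1.34 ± 0.18. NECTIN2, an adhesion molecule, read 10.2, 10.6 and 10.7 in culture and 8.97, 9.01 and 8.72 in tumours and fell by 1.60 (SE 0.20, adjusted p = 0.0334). None of these 12 genes was called for a difference between the parental and the spheroid change, which does not show that the changes were equal. In spheroid cells PTGER4, SDC4 and NUAK1 changed in the opposite direction, by -0.15, -0.27 and 0.16. The others had the same sign in both, and those that rose changed by 0.18 (MYO10) to 1.57 (EMP1) in spheroid cells.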
